A study of Mus musculus with 14 samples.

Results

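The MHC class II and antigen presentation genes described here were H2-Aa, H2-Ab1, H2-Eb1, Cd74, Ciita, B2m, H2-K1, H2-D1, Tap1 and Psmb8. Their probes were taken by gene name, as every non-control probe that carried one of these 10 names. The list itself was chosen with earlier results of these data known. They made up 12 of 55681 probes, or 10 of 36161 gene names, on a 1-colour mouse expression array. RNA of 14 samples was measured: small intestine of C57BL/6J mice (n = 3), colon labelled C57BL/6J (n = 3), adenomas of APCmin/+ mice (n = 3), the tissue adjacent to adenomas of APCmin/+ mice (n = 2) and the CT26 cell line (n = 3). The labels name tissues rather than sorted cells, and for its methylation profiles the paper describes the healthy colon and small intestine as mucosa. Per the methods, wild-type mice were adults over 8 weeks of age and every mouse had the C57BL/6J background. APCmin/+ mice carry a truncating mutation in 1 copy of the Wnt pathway gene Apc and form adenomas mainly in the small intestine. CT26 is a carcinoma cell line derived from a BALB/c mouse, so that the cell line differs from the tissues in strain, in culture and in cell makeup together. The sample list of the study places all adenoma and adjacent arrays under 1 APCmin/+ mouse, so that the spread between them may be that of pieces of 1 animal. That list also places 1 of the colon arrays, which the labels call C57BL/6J, under the APCmin/+ mouse. The methods likewise name APCmin/+ mice as a source of normal colon tissue.

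MHC class II molecules show peptides from the endosomes to CD4 T cells, and MHC class I molecules show peptides from the cytosol to CD8 T cells. Class II genes are switched on together by Ciita, the class II transactivator, and are known in the gut from dendritic cells, macrophages and B cells and from the enterocytes of the small intestine. Class I molecules are made by nearly all nucleated cells, and both sets rise with interferon gamma. In unsorted tissue, fewer cells of a type and less RNA per cell cannot be told apart.

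The promoters of the genes are shown first as a description, and their part in the differences below was not tested. RefSeq promoters (build GRCm38.p6) were found for 7 of the 10 genes. The 150 bases before the start are given 5′ to 3′ for 2 class II chains and 2 class I chains. Capitals mark the Y box core ATTGG and, in the class II genes, the X1 box core GCAACT. In the class I genes they mark the Y box core, the kappa B site GGGGATTCCCC and the interferon regulatory factor core TTTCNNTT. Both strands were searched, so that CCAAT and AACTGAAA are matches of the opposite strand, and none of the marked matches overlapped. H2-K1 has 2 starts in the table, and the first is shown.
H2-Aa, chr17:34287824-34287973, minus strand: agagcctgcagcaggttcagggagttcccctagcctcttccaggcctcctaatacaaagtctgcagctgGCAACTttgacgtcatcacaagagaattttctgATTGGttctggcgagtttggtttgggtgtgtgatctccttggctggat
H2-Eb1, chr17:34305717-34305866, plus strand: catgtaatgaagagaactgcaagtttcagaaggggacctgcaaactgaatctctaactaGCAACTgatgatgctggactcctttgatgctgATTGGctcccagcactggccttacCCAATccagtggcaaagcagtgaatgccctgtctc
H2-K1, chr17:34000348-34000497, minus strand: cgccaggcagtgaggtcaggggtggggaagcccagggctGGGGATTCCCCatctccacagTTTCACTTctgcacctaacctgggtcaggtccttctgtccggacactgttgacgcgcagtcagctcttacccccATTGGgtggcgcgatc
B2m, chr2:122147537-122147686, plus strand: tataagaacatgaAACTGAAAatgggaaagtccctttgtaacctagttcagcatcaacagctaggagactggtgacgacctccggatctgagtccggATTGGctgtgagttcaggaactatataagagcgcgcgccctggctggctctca

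In H2-Aa the X1 core began 81 bases and the Y core 48 bases before the start. In H2-Eb1 the same pair began 91 and 59 bases before it. Of 32851 promoters searched over the 250 bases before the start, 33.8% held ATTGG, 9.01% GCAACT, 21.3% TTTCNNTT and 0.0304% (10 promoters) the kappa B site. H2-D1 also held the kappa B site, 171 bases before its start, and H2-Aa an interferon regulatory factor core at 213 bases, outside the stretch shown. GCAACT was in the Tap1 window as well, 196 bases before the start. The motifs were picked after these promoters were read, and a match is a description of letters, not of binding. The kappa B letters were copied from the H2-K1 promoter, so that the match there was fixed in advance and the 10 promoters include H2-K1.

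The probe for H2-Aa, which was not above background on any CT26 array, lies at chr17:34421285-34421344 (NCBI37/mm9) and has 1 reading frame without a stop codon over its 60 bases.
H2-Aa probe: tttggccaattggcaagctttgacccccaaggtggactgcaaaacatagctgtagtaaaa

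H2-Ab1 had 2 probes at chr17:34406305-34406363 and chr17:34406296-34406355 (NCBI37/mm9), which overlapped by 51 bases and differed there at 1 base (C42T, counted from the 5′ end of the first probe). The stretch around that base is shown with it in capitals, because it is the only difference within the bases that both probes share.
H2-Ab1, first probe: taaacgagacCcagactctgg
H2-Ab1, second probe: taaacgagacTcagactctg
On the 11 tissue arrays the second probe read between 0.08 lower and 0.15 higher than the first (log2), so that the pair differed by no more than that here. H2-K1 also had 2 probes, and the other 8 genes had 1 each. The class I heavy chains are near-identical in sequence, and how far the probes for H2-K1 and H2-D1 read their relatives was not tested.

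Signals are given as scaled log2 levels, the log2 of the processed signal minus the 75th percentile of that array. Between 46.85% and 58.2% of probes were well above background per array. Of the 10 genes, 6 were well above background on all 14 arrays (Cd74, B2m, H2-K1, H2-D1, Tap1 and Psmb8). Replicate 3 of colon stood apart before any comparison of these genes. Over 20832 probes it correlated at 0.9689 with replicate 1 of adjacent tissue, which comes from an APCmin/+ mouse, at 0.9687 with replicate 1 of small intestine and at 0.9383 and 0.9344 with the other colon arrays. Its Car1, a colonocyte carbonic anhydrase, read -3.09 against 7.17 and 7.75 in the other colon arrays. The 6 colonocyte markers had a median of -2.46 there, against 6.01 and 5.94. Aqp8, Slc37a2 and Ly6g6c were lower there as well. Saa1 (9.38 against 7.49 and 7.05) and Car4 (6.55 against 5.59 and 5.11) were higher, and the summed list was 9.57 against 8.86 and 8.95. The 8 enterocyte markers of replicate 3 had a median of 5.80, against -2.96 and -2.64 in the other colon arrays and 5.91 to 9.25 in small intestine. The differences of the 10 genes from colon are therefore also given without that array.

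The class II genes descended by group mean from small intestine to adjacent tissue to adenoma. H2-Ab1, the beta chain of the A molecule, read 8.58, 8.0 and 7.71 in small intestine, 6.08 and 5.40 in adjacent tissue and 4.39, 4.77 and 4.77 in adenoma. The 3 groups did not overlap. In colon it read 4.10, 5.33 and 7.56, from under every adenoma array to just under the lowest small intestine array, which replicate 3 came near.

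H2-Aa, the alpha chain of the same molecule, read 5.65, 4.01 and 3.64 in small intestine. It read 2.22 and 1.48 in adjacent tissue and 0.50, 1.13 and 0.88 in adenoma. The order was that of H2-Ab1, again with no overlap between the 3 groups. Colon read 0.71, 1.79 and 4.66, so that replicate 3 lay among the small intestine arrays.

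H2-Eb1, the beta chain of the E molecule, read 7.54, 6.58 and 6.39 in small intestine, 5.31 and 4.67 in adjacent tissue and 3.75, 3.95 and 4.06 in adenoma. In colon it read 3.73, 5.0 and 2.99. Here replicate 3 of colon was the lowest tissue array of all, the opposite of its place in H2-Aa, H2-Ab1 and Cd74.

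Cd74, the invariant chain that guards the groove of new class II molecules, read 7.06, 6.84 and 6.59 in small intestine, 4.48 and 3.73 in adjacent tissue and 2.56, 3.28 and 3.18 in adenoma. Its colon arrays read 2.71, 3.88 and 6.80. Of the 10 genes it had the largest difference between adenoma and small intestine.

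Ciita was dim everywhere. It read -2.05, -2.59 and -2.50 in small intestine, -3.47 and -4.12 in adjacent tissue and -4.03, -5.04 and -4.89 in adenoma, where replicate 2 was not well above background. Colon read -3.96, -3.34 and -1.89. Adjacent tissue and adenoma overlapped for this gene, while both lay under every small intestine array.

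**Figure D1:**
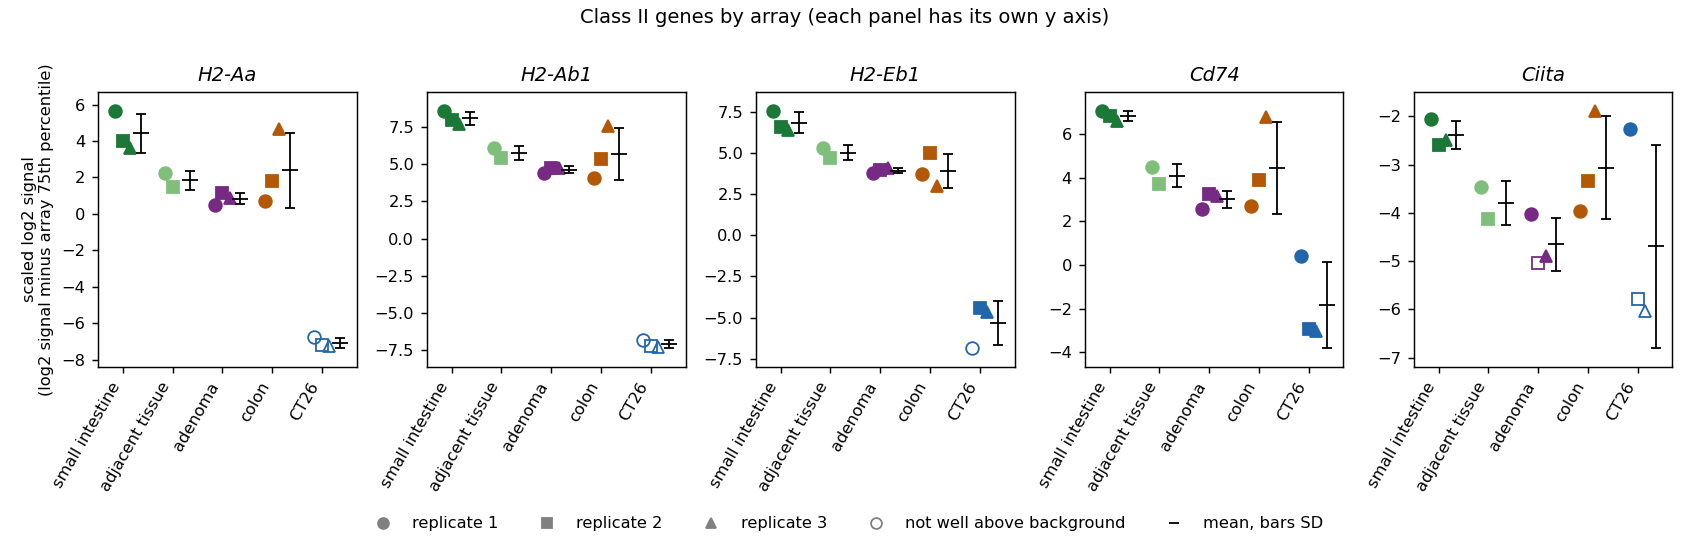
Scaled log2 level (log2 signal minus the 75th percentile of the array, y axis, 1 scale per panel) of 5 class II genes by sample group. Points are arrays, open points were not well above background, and the bars give mean and SD. Small intestine lies above adjacent tissue and adenoma in every panel, colon replicate 3 (triangle) is the highest colon array except for H2-Eb1, and H2-Aa and H2-Ab1 are open on all CT26 arrays.

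The class I and peptide supply genes had the same order of means in the intestine. B2m, the light chain shared by all class I molecules, read 7.90, 8.32 and 8.57 in small intestine, 7.08 and 7.01 in adjacent tissue and 5.55, 5.82 and 5.69 in adenoma. Colon read 5.61, 6.41 and 8.21. No small intestine array overlapped with adjacent tissue or adenoma.

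H2-K1, a classical heavy chain, read 8.0, 7.82 and 8.21 in small intestine, 6.89 and 7.06 in adjacent tissue, 6.24, 6.38 and 6.29 in adenoma and 6.87, 7.26 and 8.46 in colon. H2-D1, the other classical heavy chain on the array, read 7.10, 6.50 and 7.04 in small intestine, 5.95 and 5.88 in adjacent tissue, 5.59, 5.79 and 5.50 in adenoma and 5.90, 6.33 and 8.49 in colon. For both chains the adenoma arrays lay under the adjacent tissue arrays.

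Tap1, a subunit of the transporter that carries peptides into the endoplasmic reticulum, read 0.95, 0.99 and 1.38 in small intestine, -0.13 and 0.09 in adjacent tissue and -1.27, -1.45 and -1.51 in adenoma. Psmb8, a catalytic subunit of the immunoproteasome that cuts those peptides, read 3.86, 4.81 and 5.03 in small intestine, 3.1 and 3.28 in adjacent tissue and 1.61, 2.22 and 1.52 in adenoma. In colon Tap1 read -1.54, -0.01 and 1.47 and Psmb8 read 1.67, 2.43 and 4.92. The adenoma arrays were the lowest of the 3 intestinal groups for both genes.

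**Figure D2:**
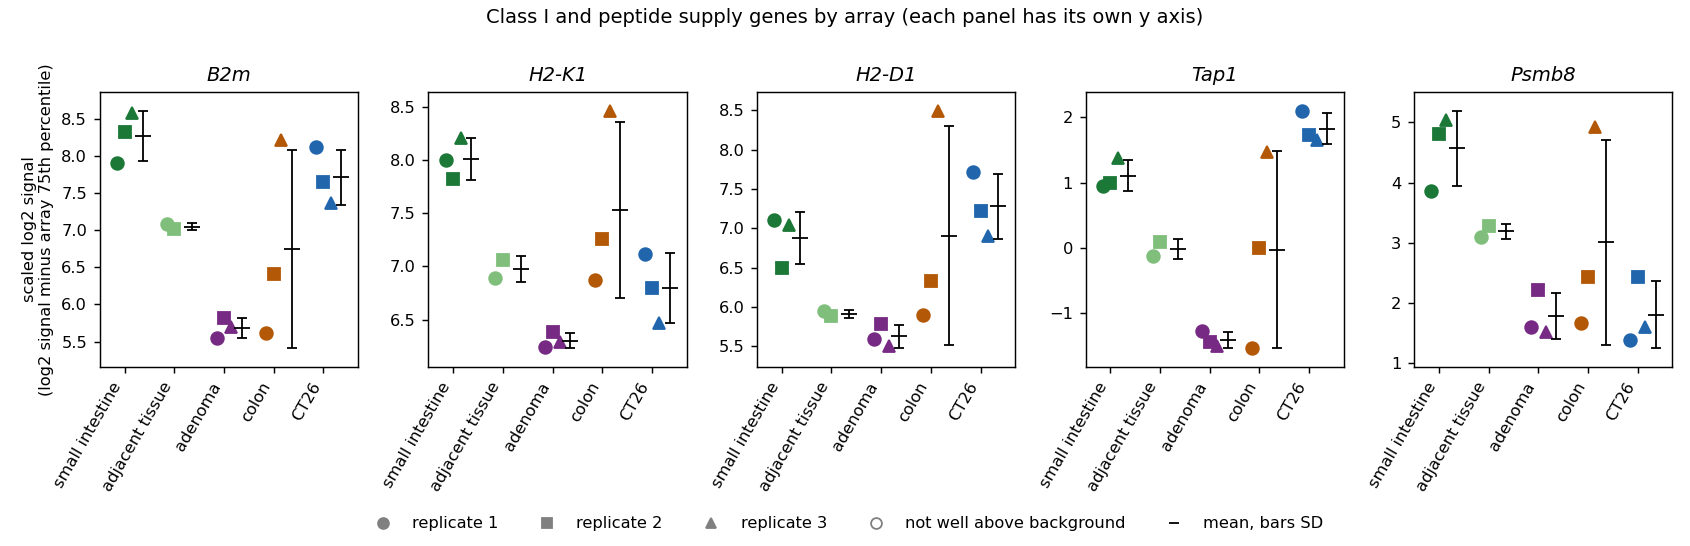
Scaled log2 level (y axis, 1 scale per panel) of 5 class I and peptide supply genes by sample group, drawn as for class II. Small intestine, adjacent tissue and adenoma descend in that order in every panel, while the filled CT26 points reach 7.37 to 8.11 for B2m and 1.65 to 2.10 for Tap1.

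The question of the first comparison was how adenomas differ from healthy small intestine. All 10 genes fell in adenoma, at a log2 difference of at least 1.2 and an adjusted p of at most 0.01 (limma, Benjamini-Hochberg over all probes tested). Of 22094 genes tested, 11.1% were lower and 11.3% higher in adenoma by the same rule. The median difference of the 10 genes was -2.68, against -0.15 over all genes tested.

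Cd74 fell by 3.82 ± 0.24 (SE; 14.2-fold, adjusted p = 0.000104). H2-Aa fell by 3.60 ± 0.51 (12.1-fold, adjusted p = 0.00151) and by 2.99 without replicate 1 of small intestine, its brightest array. H2-Ab1 fell by 3.45 ± 0.26 (10.9-fold, adjusted p = 0.000157), and its second probe fell by 3.34. H2-Eb1 fell by 2.92 ± 0.31 (7.56-fold, adjusted p = 0.000515). Ciita, the activator of these genes, fell by 2.27 ± 0.30 (4.83-fold, adjusted p = 0.00124), but by 0.93 in the normalized table of the authors and by 1.15 with another background correction, both under the threshold of 1.2. Ciita was close to background in adenoma, so that the size of its difference depended on how background was handled.

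Among the class I genes, Psmb8 fell by 2.78 ± 0.35 (6.87-fold, adjusted p = 0.000957), B2m by 2.58 ± 0.21 (5.96-fold, adjusted p = 0.000207) and Tap1 by 2.52 ± 0.18 (5.74-fold, adjusted p = 0.000143). H2-K1 fell by 1.71 ± 0.17 (3.26-fold, adjusted p = 0.000379), and by 2.10 on its second probe. H2-D1 fell by 1.26 ± 0.21 (2.39-fold, adjusted p = 0.00314). The H2-D1 call was lost when any array but replicate 2 of small intestine was left out (log2 differences of -1.15 to -1.34, adjusted p of 0.00593 to 0.0169), and H2-D1 fell short of 1.2 in the table of the authors (-0.95) and with quantile normalization (-0.99). H2-K1 and H2-D1 moved less than the light chain and the peptide supply genes, while the heavy chains H2-Q1 and H2-T3, given below, moved more.

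Adenomas were next compared with the tissue beside them, which asks what is particular to the tumour within APCmin/+ intestine. This comparison uses the same adenoma arrays as the first. B2m fell by 1.36 ± 0.16 (2.57-fold, adjusted p = 0.00682) and Tap1 by 1.39 ± 0.17 (2.62-fold, adjusted p = 0.00718), so that 2 of 10 genes were lower and none higher, against 1.78% lower and 2.40% higher of 22198 genes tested. Both calls were lost when any 1 of the 5 arrays was left out, with adjusted p of 0.0128 to 0.0469, and with slide as a block (adjusted p = 0.017 and 0.0179).

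The other 8 genes did not pass, and all 8 read lower in adenoma. Psmb8 differed by -1.41 ± 0.25 (adjusted p = 0.0192). H2-Ab1 differed by -1.09 ± 0.26 (adjusted p = 0.038), H2-Eb1 by -1.07 ± 0.24 (adjusted p = 0.0321), Cd74 by -1.10 ± 0.32 (adjusted p = 0.0622) and H2-Aa by -1.02 ± 0.30 (adjusted p = 0.0622). H2-Aa, H2-Ab1, H2-Eb1 and Cd74 lay close together, between -1.02 and -1.10. H2-K1 differed by -0.67 ± 0.15, Ciita by -0.85 ± 0.37 and H2-D1 by -0.29 ± 0.16. The median difference of the 10 genes was -1.08, against -0.04 over all genes.

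Slide 2 held 1 array of each group. Within slides, H2-Aa differed by -1.53 on slide 1 and by -0.36 on slide 2, and Cd74 by -1.61 and -0.46. B2m differed by -1.46 and -1.2, and Tap1 by -1.26 and -1.54. Ciita differed by -0.99 and -0.91, and H2-K1 by -0.62 and -0.67. H2-Ab1 differed by -1.5 and -0.62, H2-Eb1 by -1.4 and -0.72, Psmb8 by -1.53 and -1.06 and H2-D1 by -0.41 and -0.09. H2-Aa, Cd74, H2-Ab1 and H2-Eb1 thus moved more between the slides than the other genes.

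Adjacent tissue, which shares its arrays with the comparison above, was set against small intestine to ask how non-tumour APCmin/+ tissue differs from healthy intestine. None of the 10 genes passed, in a comparison where 0.00924% of 21640 genes (2 genes) did. All 10 read lower in adjacent tissue, all 10 had an unadjusted p under 0.05 (30.6% over all genes), and their median difference was -1.40 against -0.10 over all genes. Cd74 differed by -2.72 ± 0.30 (adjusted p = 0.0384), H2-Aa by -2.58 ± 0.63 (adjusted p = 0.0743), H2-Ab1 by -2.36 ± 0.35 (adjusted p = 0.0467) and H2-Eb1 by -1.85 ± 0.42 (adjusted p = 0.0663). The remaining genes lay between -0.97 for H2-D1 and -1.42 for Ciita.

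**Figure D3:**
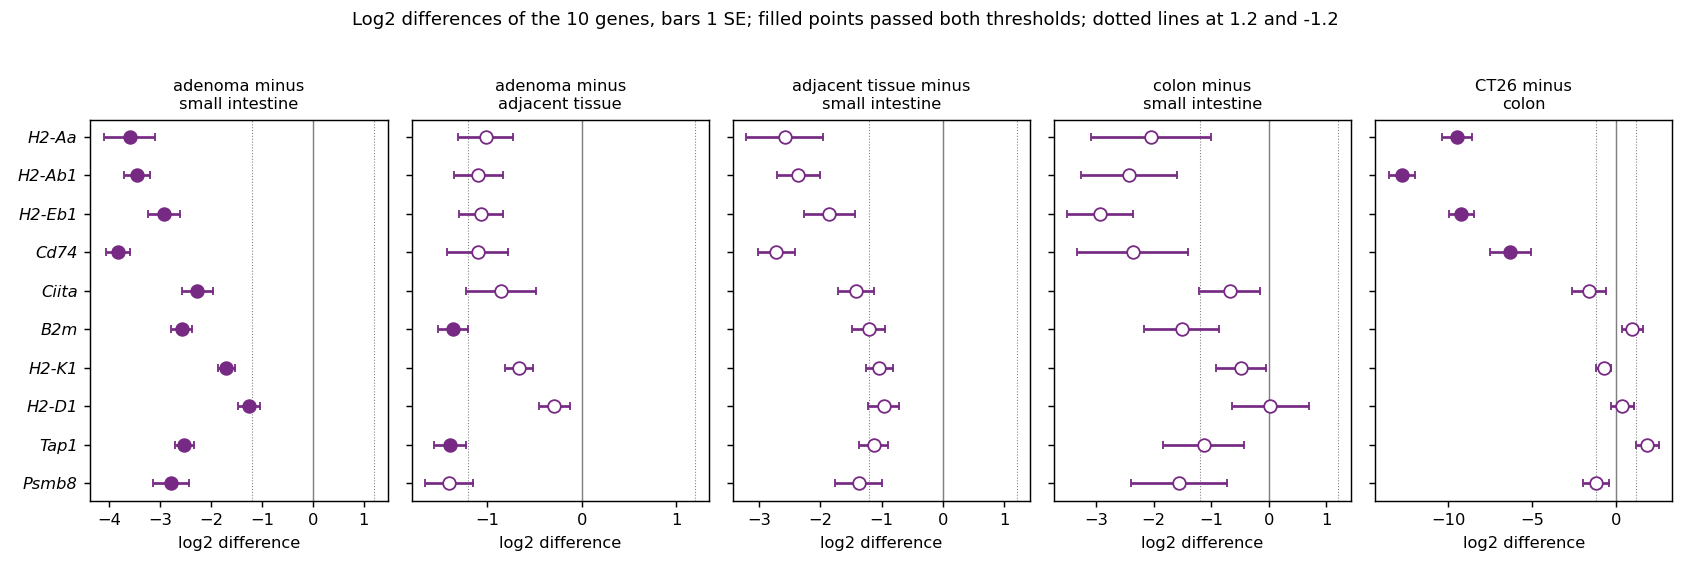
Log2 difference (x axis, 1 scale per panel) of the 10 genes in the 5 comparisons, first group minus second. Bars give 1 SE, filled points passed both thresholds and dotted lines mark 1.2 and -1.2. All 10 points are filled for adenoma minus small intestine, 2 (B2m and Tap1) for adenoma minus adjacent tissue and 4 (H2-Aa, H2-Ab1, H2-Eb1 and Cd74) for CT26 minus colon.

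Colon was compared with small intestine, again with the small intestine arrays used above. As given at the start, the genotype of the colon group is in doubt, so that it may not be all wild type. None of the 10 genes passed, and 0.00969% of 20643 genes (2 genes) did. Of the 10, 3 had an unadjusted p under 0.05, near the 23.8% over all genes. H2-Eb1 differed by -2.93 ± 0.57 (adjusted p = 0.0731), H2-Ab1 by -2.43 ± 0.83 (adjusted p = 0.158), Cd74 by -2.37 ± 0.97 (adjusted p = 0.207) and H2-Aa by -2.05 ± 1.05 (adjusted p = 0.285). H2-D1 differed by 0.03 ± 0.67 (adjusted p = 0.986), and the other 5 genes lay between -0.48 for H2-K1 and -1.55 for Psmb8.

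Replicate 3 of colon set the spread in this comparison. Without it, Cd74 fell by 3.53 ± 0.39 (11.6-fold, adjusted p = 0.00325), H2-Ab1 by 3.38 ± 0.45 (10.4-fold, adjusted p = 0.00566) and B2m by 2.25 ± 0.34 (4.76-fold, adjusted p = 0.00868) from small intestine to the other 2 colon arrays. In that fit 3.90% of all genes were lower and 3.34% higher. Psmb8 then differed by -2.51 (adjusted p = 0.0126), H2-Aa by -3.18 (adjusted p = 0.0211), H2-Eb1 by -2.47 (adjusted p = 0.0205) and H2-D1 by -0.77 (adjusted p = 0.106). Tap1 differed by -1.88 (adjusted p = 0.0353), Ciita by -1.27 (adjusted p = 0.032) and H2-K1 by -0.94 (adjusted p = 0.0432).

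The gap between 2 probes of 1 array shows how replicate 3 of colon departed from the other tissue arrays. A gap has no meaning as a level, and only its change between arrays is read. H2-Eb1 minus H2-Ab1 lay between -1.42 and -0.33 on the other 10 tissue arrays and was -4.58 on colon replicate 3. H2-D1 minus H2-K1 lay between -1.32 and -0.60 on those arrays and was 0.03 on colon replicate 3. For H2-Aa minus H2-Ab1 that array, at -2.90, lay beside replicate 1 of small intestine, at -2.94, and the other 9 lay between -4.07 and -3.39. Enterocyte markers and B cell genes were also high on that array, as given below, and their part in these gaps was not tested.

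**Figure D4:**
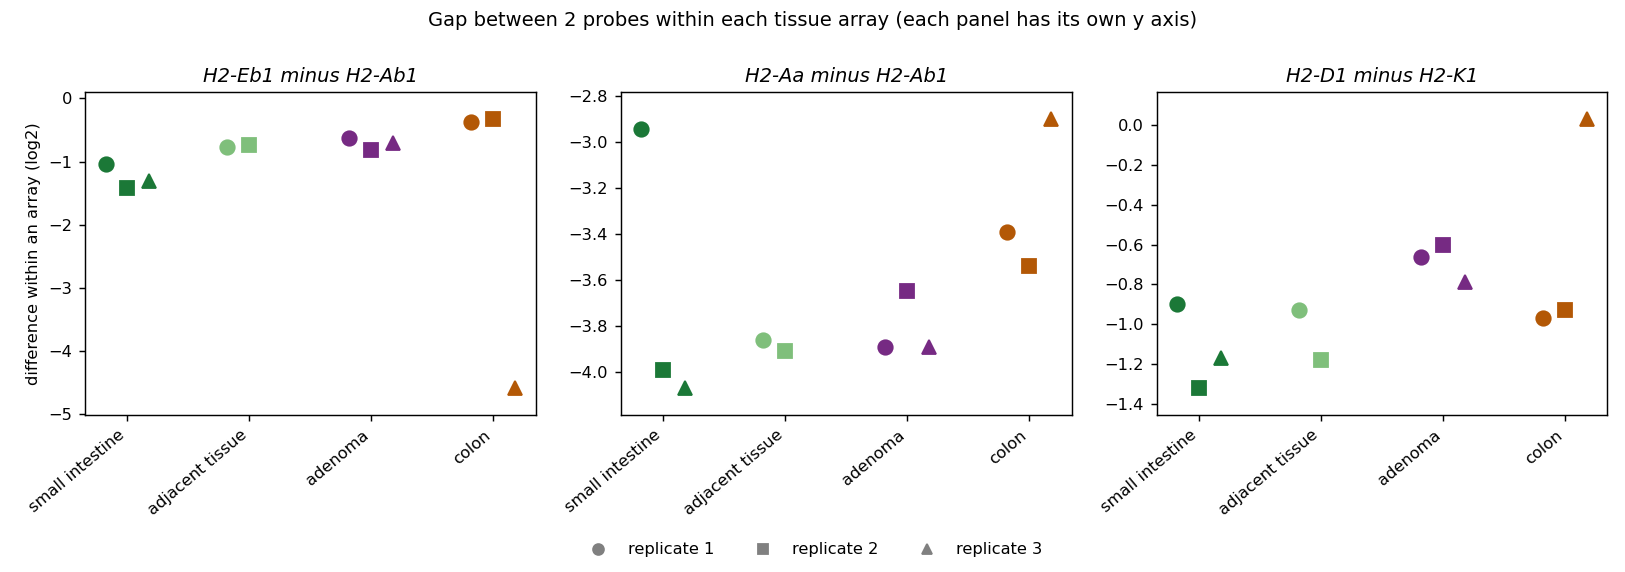
Difference in scaled log2 level between 2 probes of the same array (y axis, 1 scale per panel) for the 11 tissue arrays, with a symbol for each replicate. Colon replicate 3 (triangle) is at -4.58 for H2-Eb1 minus H2-Ab1 and at 0.03 for H2-D1 minus H2-K1, outside the range of the other 10 arrays in both.

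CT26 was compared with colon to describe the advanced tumour line. Class II chains were at or near background, and class I chains were bright. H2-Aa read -6.74, -7.21 and -7.26 and H2-Ab1 read -6.79, -7.20 and -7.28 in CT26, none of them well above background. H2-Aa was at least 165-fold lower than in colon (adjusted p = 0.000117), and H2-Ab1 at least 1601-fold lower (adjusted p = 1.32e-05). Each bound sets the colon mean against the lowest signal well above background on each CT26 array, or the signal of the probe where higher, and without colon replicate 3 the bounds were 75.1 and 829. The second H2-Ab1 probe was below background on all CT26 arrays too.

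H2-Eb1 read -6.85, -4.43 and -4.67 in CT26, well above background on 2 of 3 arrays. It fell by 9.22 ± 0.75 (598-fold, adjusted p = 5.26e-05) and by 8.46 without replicate 1 of CT26, and the difference was -9.68 without colon replicate 3. Cd74 read 0.43, -2.92 and -3.03, well above background on all 3 arrays with replicate 1 the highest. It fell by 6.30 ± 1.24 (78.9-fold, adjusted p = 0.00397). That value was -7.44 without CT26 replicate 1, -5.13 without colon replicate 3 and -7.18 without colon replicate 1. Leaving out CT26 replicate 2 or 3 ended the call (adjusted p = 0.0173 and 0.0176).

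Ciita read -2.27 on replicate 1 of CT26, above the adenoma arrays and level with small intestine, and -5.78 and -6.04 on the other 2 arrays, where it was not well above background. Ciita and Cd74 were both highest on CT26 replicate 1, where H2-Aa, H2-Ab1 and H2-Eb1 were not well above background. Ciita differed from colon by -1.64 ± 1.02 (adjusted p = 0.219), and by -1.05 without colon replicate 3 (adjusted p = 0.437).

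The class I genes were measured in CT26 at levels like those of the tissues. B2m read 8.11, 7.64 and 7.37, above all adenoma and adjacent tissue arrays, and differed from colon by 0.96 ± 0.63 (adjusted p = 0.243). H2-D1 read 7.71, 7.22 and 6.90 and differed by 0.37 ± 0.66 (adjusted p = 0.67). H2-K1 read 7.12, 6.80 and 6.47 and differed by -0.74 ± 0.45 (adjusted p = 0.211). These differences could not be told from 0 within their errors, which colon replicate 3 widened.

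Tap1 read 2.10, 1.73 and 1.65 in CT26, above every tissue array, and differed from colon by 1.85 ± 0.69 (adjusted p = 0.0544). Psmb8 read 1.39, 2.44 and 1.60 and differed by -1.2 ± 0.79 (adjusted p = 0.242). Without colon replicate 3, Tap1 rose by 2.60 ± 0.47 (adjusted p = 0.00299) and B2m by 1.69 ± 0.37 (adjusted p = 0.00734), in a fit where 19.4% of all genes were lower and 20.1% higher. H2-D1 then differed by 1.16 ± 0.35 (adjusted p = 0.0249), H2-K1 by -0.27 ± 0.32 (adjusted p = 0.505) and Psmb8 by -0.25 ± 0.42 (adjusted p = 0.645).

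In all, 4 of 10 genes fell in CT26 and none rose, where 16.2% of 21692 genes were lower and 21.0% higher. The median over all genes tested was 0.32 in this comparison. Over probes it was 0.37 with the 75th percentile and -0.14 with a scale set on the probes above background on all arrays, so that the differences above carry an uncertainty of about that size. H2-D1 turned from 0.37 to -0.14 under that scale and to -0.11 under quantile normalization, while the 4 class II genes and B2m, H2-K1, Tap1 and Psmb8 kept their direction. Probe positions are given on the mouse reference genome, which is that of C57BL/6J, and CT26 comes from BALB/c, which carries other MHC alleles. Probe mismatch as a source of the low class II signal was not tested.

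The group order of each gene was read from the means. H2-Aa, H2-Ab1, H2-Eb1 and Cd74 were highest in small intestine and lowest in CT26. Ciita was highest in small intestine, and its adenoma (-4.65 ± 0.55) and CT26 (-4.70 ± 2.11) arrays overlapped and lay in part below background, so that they have no order. B2m, H2-K1 and Psmb8 were highest in small intestine and lowest in adenoma, and H2-D1 and Tap1 were highest in CT26 and lowest in adenoma. Neighbours overlapped at most steps that involve colon. For B2m, the means ran from small intestine (8.26 ± 0.33, SD, n = 3) to CT26 (7.71 ± 0.38), adjacent tissue (7.05 ± 0.05, n = 2), colon (6.75 ± 1.33) and adenoma (5.69 ± 0.13), and only the step from CT26 to adjacent tissue had no overlap. For H2-Ab1, small intestine (8.10 ± 0.45) stood clear of adjacent tissue (5.74 ± 0.48), which overlapped with colon (5.67 ± 1.75), and colon overlapped with adenoma (4.64 ± 0.22).

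The rest of the pathway was read from a list of 74 other genes, 72 of them on the array, each at its brightest probe. Between adenoma and small intestine, 24 of 67 tested genes fell and 5 rose, where 11.1% of all genes were lower and 11.3% higher, with a median of -0.85 against -0.15 over all genes. H2-DMa and H2-DMb1, the 2 chains of the DM molecule that swaps peptides on class II, fell by 4.33 ± 0.21 (20.1-fold, adjusted p = 5.66e-05) and 3.88 ± 0.24 (14.7-fold, adjusted p = 9.87e-05). H2-DMa had a larger difference than any of the 10 genes. Among the 6 lysosomal genes, Ctss, the cathepsin that trims the invariant chain, and Ifi30, a lysosomal thiol reductase, fell (by 2.40 and 1.38). Ctsl, a related cathepsin, rose by 2.79 ± 0.40 (6.91-fold, adjusted p = 0.00166), and Lgmn, an asparaginyl endopeptidase, rose by 1.35.

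Of the class II promoter factors, 1 of 6 tested fell, Rfxank, a subunit of the X box factor RFX, by 1.94 ± 0.28 (adjusted p = 0.00166). The median of that group was -0.09. Nfya, Nfyb and Nfyc, which bind the Y box, did not pass. Nfya differed by 0.00, Nfyb by 0.05 and Nfyc by -0.44.

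Of 20 class I heavy chains tested, 11 fell and 2 rose. How far these probes read related chains was not tested, so that the 11 may not be separate signals. H2-Q1 fell by 3.32 ± 0.46 (adjusted p = 0.00143), H2-T3, the thymus leukemia antigen of intestinal epithelium, by 3.23 ± 0.30 (adjusted p = 0.000316) and H2-Q10 by 2.67 ± 0.26 (adjusted p = 0.000383). Cd1d1, which shows lipids to natural killer T cells, rose by 1.98 ± 0.30 (adjusted p = 0.00208), and Mr1, which shows vitamin metabolites, was not above background in small intestine and at least 1.95-fold higher in adenoma (adjusted p = 0.00434).

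Peptide supply moved in part. Tap2, the partner of Tap1, Tapbp and Tapbpl fell among 7 loading genes (by 2.11, 1.40 and 1.33), while Calr, Canx, Pdia3 and Erap1 did not pass. Psmb9 fell by 2.64 ± 0.28 (adjusted p = 0.00048), Psmb10 by 1.43 and Psme2 by 1.39 among 5 genes of the immunoproteasome and its activators. None of the 3 constitutive counterparts, Psmb5, Psmb6 and Psmb7, passed, and their median was 0.14. In interferon gamma signalling, Irf1 (1.56) and Jak2 (1.43) fell among 10 genes tested, and all 10 read lower. Ifng itself was not tested, because it was not well above background on all arrays of either group. Of 6 co-stimulation genes 1 passed, Cd40, which rose by 1.5.

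Between adenoma and adjacent tissue, 3 of 67 genes fell and none rose (1.78% and 2.40% over all genes): H2-T3 by 2.15 ± 0.16 (adjusted p = 0.00304), H2-Q1 by 1.96 ± 0.15 (adjusted p = 0.00324) and Psmb9, which lies beside Tap1 in the genome, by 1.56 ± 0.21 (adjusted p = 0.00894). None of the list passed in adjacent tissue against small intestine or in colon against small intestine. Without colon replicate 3, 4 of 69 fell and 3 rose in colon, a count added after the data were seen, against the 3.90% and 3.34% of all genes given above.

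In CT26 against colon, 16 of 67 genes of the list fell and 8 rose, with a median of -0.17 against 0.32 over all genes. Of all genes 16.2% were lower and 21.0% higher, and the share of the list that rose was under that over all genes. Ctss was not above background in CT26 and at least 1649-fold lower (adjusted p = 8.69e-07), and H2-DMb1 at least 208-fold lower (adjusted p = 0.000366). H2-Oa, a chain of the DM inhibitor DO, was at least 28.6-fold lower (adjusted p = 0.000275). Of 6 class II chains and chaperones tested 5 fell, while none of the 7 class I loading genes passed and their median was -0.24. H2-Q1 was well above background on 1 of 3 CT26 arrays, where it read -4.70, against 1.23, 2.48 and 3.38 in colon (adjusted p = 3.36e-05). Cd1d1 was at least 32.5-fold lower (adjusted p = 2.59e-05), H2-T3 at least 73.7-fold lower (adjusted p = 0.000955) and Icosl, a co-stimulatory ligand, at least 44.4-fold lower (adjusted p = 3.7e-06). Without colon replicate 3 the bounds were 71.7 for H2-DMb1, 15.9 for H2-Oa, 29.4 for H2-T3, 48.6 for Cd1d1, 35.6 for Icosl and 1761 for Ctss. Ifngr1 and Ifngr2, the chains of the interferon gamma receptor, fell by 2.58 and 2.47. Ctsl rose by 4.44 ± 0.49 (adjusted p = 0.000245) and H2-M3, a class I chain for formylated peptides, by 3.95 ± 0.34 (adjusted p = 7.2e-05). Without colon replicate 3, 16 fell and 11 rose, and without CT26 replicate 1, 16 fell and 6 rose (13.2% lower and 14.8% higher over all genes), counts also added after the data were seen.

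**Figure D5:**
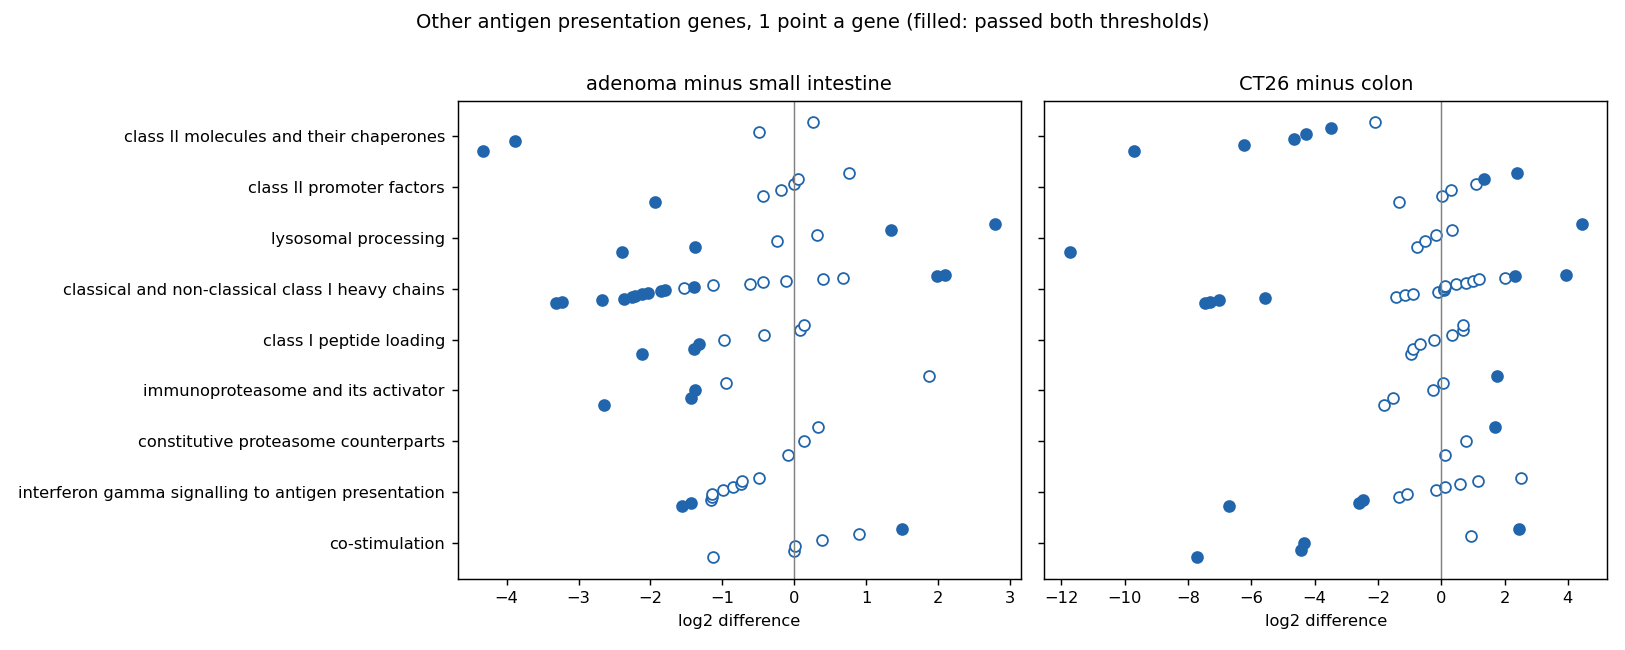
Log2 difference (x axis) of the other antigen presentation genes by functional list, 1 point a gene, for adenoma minus small intestine and CT26 minus colon. Filled points passed both thresholds. In adenoma 24 filled points lie left of 0 and 5 right of it, and in CT26 16 and 8.

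Markers of the cells that carry these genes moved unevenly between small intestine and adenoma, where 11.1% of all genes were lower and 11.3% higher in adenoma. Of 4 T cell markers, Cd3g, Cd4 and Cd8a fell from small intestine to adenoma (by 3.06, 2.88 and 2.80). The summed level of the list fell from a range of 5.09 to 6.09 to one of 3.01 to 3.23 (log2). That sum was led by Cd4, at 4.81 to 5.86 and 2.51 to 2.68, a probe that also had signal in CT26, as given below. Of 8 enterocyte markers 4 fell (Sis, Apoa1, Fabp2 and Mttp), with summed levels of 10.59 to 12.13 against 8.92 to 9.66. Of 8 general epithelial markers 3 fell and 1 rose. None of the 2 B cell and 3 dendritic cell markers tested fell, and of 7 macrophage markers 2 rose (Cd68 and Cx3cr1) and none fell. The summed dendritic list read 0.18 to 0.46 in small intestine, 0.97 to 1.35 in adjacent tissue and 0.52 to 1.01 in adenoma, and the macrophage list 3.72 to 3.96, 3.46 to 4.46 and 3.53 to 4.02. The smooth muscle list read 6.70 to 8.58 in small intestine and 6.22 to 6.50 in adenoma, with Myh11 called lower among 5 markers. Of 2 markers of all leukocytes, Ptprc, the common leukocyte antigen, fell by 1.43, and Coro1a did not pass. The summed leukocyte list overlapped, at 1.61 to 2.14 in small intestine and 1.29 to 1.93 in adenoma. Called lower together with the class II genes were thus 3 of 4 T cell, 4 of 8 enterocyte, 3 of 8 epithelial and 1 of 5 smooth muscle markers. Ptprc was called lower as well, and Coro1a was not. The enterocyte medians overlapped, at 5.91 to 9.25 in small intestine and 5.29 to 6.10 in adenoma. The part of any cell type was not tested.

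In colon the summed B cell list read 2.14 to 5.18, highest on replicate 3, against -0.34 to -0.05 in small intestine. In CT26, 7 of 8 epithelial markers read under -2 on every array, and Krt18 read 4.92 to 5.77. Of the markers tested in CT26 against colon, 4 of 5 for B cells, 3 of 4 for dendritic cells and 5 of 6 for macrophages fell. For T cells 1 of 3 fell. Of all genes 16.2% were lower and 21.0% higher in CT26. In CT26 the summed B cell, dendritic and macrophage lists read -2.23 to -1.85, -2.45 to -2.03 and 1.47 to 1.87, the last led by Csf1r at 1.37 to 1.80. The summed T cell list read 2.08 to 2.51 in CT26, led by Cd4 at 1.58 to 2.05, with Cd3e at 0.25 to 0.67. What these probes read in the cell line was not tested.

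The genes whose profile over the 11 tissue arrays lay closest to the mean of H2-Aa, H2-Ab1, H2-Eb1 and Cd74 were Glipr2, Acot4, Wdfy1, Pdlim2, Plekhg6, Kbtbd11, Car13 and Gm4203. Their root mean square difference from that mean profile was 0.377 to 0.471 (log2), against a median of 1.526 over 15600 genes. The 4 genes themselves stood at 0.197 for H2-Ab1, 0.435 for Cd74, 0.453 for H2-Aa and 0.958 for H2-Eb1. Ciita stood at 0.776, and the class I genes between 0.615 for B2m and 1.057 for H2-D1. The arrays share groups and scaling, so that this likeness is a description. Acot4, a peroxisomal thioesterase, read 1.87 on average in small intestine, -0.28 in adjacent tissue, -1.37 in adenoma and -0.58 in colon. Car13, a carbonic anhydrase, read 2.46, 0.90, -0.31 and 0.35 in the same order.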

How the data were processed

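The authors labelled RNA with Cy3, hybridised it to 1-colour mouse arrays and extracted probe intensity with Feature Extraction 10.7.3.1, per the file headers. They also deposited a normalized log2 table, whose columns of their own fold changes and p-values were not used, nor were 28 flag and detection columns. Here log2 of the deposited processed intensity was centred on the 75th percentile of each array. Control spots and outlier spots were left out, and spots of a probe were averaged. Each comparison was fitted with limma 3.58.1 (R 4.3.3) on the arrays of its groups, over probes flagged as well above background throughout at least 1 of the groups, with Benjamini-Hochberg adjustment. A gene was called at a log2 difference of 1.2 and an adjusted p of 0.01, on its brightest probe. The fit was tested on simulated data. Named genes are the members, up to 6 list genes called per comparison by size and the 8 closest profiles. Further list genes were named after their values were seen. The members and lists were chosen with earlier results of these data known. The number of arrays limits the precision, and p-values measure the spread between these samples, which may be technical. Alternatives were another background correction, other scalings, filters, fits and blocks, and each array left out. Probe positions are NCBI37/mm9 as in the files, and promoter positions are GRCm38.p6. H2-Ea was read under its older name H2-Ea-ps and H2-Q4 as H2-Gs10, by RefSeq synonyms.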

Additional observations from a re-analysis of the deposited data

How the results depend on the processing

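With 2 or 3 arrays per group, limits lie mainly in single arrays and in dim probes. Over 794 values of the 10 genes under all alternatives, 742 kept their direction and their side of the threshold, 38 lost a call, 8 gained one and 6 turned direction. All 6 were of H2-D1, which was not called in either comparison: colon against small intestine gave -0.02 with slide as a block, -0.16 without small intestine replicate 2 and -0.77 without colon replicate 3 (range with an array left out -0.77 to 0.53), and CT26 against colon gave -0.11 with quantile normalization, -0.14 with the scale of probes above background and -0.14 without colon replicate 1 (range -0.14 to 1.16). Between adenoma and small intestine 7 to 10 genes were called under every alternative, and 9 to 10 with an array left out. Between adenoma and adjacent tissue the 2 calls became 0 without a filter on dim probes, with all 5 groups in one fit, with slide as a block, with the replicate block and with the replicate block by sample titles, 0 with any 1 array left out (range 0 to 0), and 5 at thresholds of 1 and 0.05. The lone array of a group was then assumed to vary like the others. Over all genes the adenoma against adjacent tissue count of 928 became 54 without the filter, 199 with all groups in one fit, 162 with the slide block, 82 with the replicate block, 0 with the block by titles and 2779 at the looser thresholds, and 0 to 1306 with an array left out (0 without adenoma replicate 2). The 2 genes called in colon against small intestine became 1635 without colon replicate 3 and 796 with all groups in one fit, and the 2 in adjacent tissue against small intestine became 136 in that fit. CT26 against colon fell from 8070 to 5137 with the stricter filter. Adjacent tissue against small intestine gave 2 at thresholds of 1 and 0.05 and 0 to 0 with an array left out. Colon against small intestine gave 0 to 3 with an array left out, 3 without colon replicate 3. CT26 against colon gave 1 with the stricter filter, which leaves out genes below background in CT26, and 3 to 6 with an array left out. Same-numbered arrays did not deviate together throughout (correlations of -0.125 to 0.291), so the numbers were not taken as pairs. The replicate block also lost H2-D1 between adenoma and small intestine (adjusted p = 0.0125), and with it 9 genes were called there. The cause of these changes was not tested.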

Other observations

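H2-Ea, the alpha chain of the E molecule, is annotated in RefSeq as a transcribed pseudogene, and mice of the C57BL/6 haplotype are known not to make it. Its probe, which has 1 reading frame without a stop codon over its 60 bases at chr17:34481469-34481528 (NCBI37/mm9), split the arrays within 2 groups labelled C57BL/6J.
H2-Ea probe: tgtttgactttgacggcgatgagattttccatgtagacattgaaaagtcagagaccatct
In small intestine it read -7.17, -2.0 and -1.81, and in colon -0.24, -7.30 and -2.44, where the values near -7 were not well above background. On the adjacent tissue, adenoma and CT26 arrays it read between -7.46 and -6.46 and was not well above background. This was noticed after the values were seen, and its cause was not tested.

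One probe of H2-T18, another class I gene of the region, read 6.38 on colon replicate 3 and at most -0.69 on every other array. A second probe of that name read 1.02 there and at most -3.82 elsewhere, and the third read 3.1 there against at most 2.06. On the same array H2-Eb1 was low against H2-Ab1, as described above, and what sets this array apart was not tested.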
